A study of Mus musculus with 6 samples.

Results

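The 8 genes described here encode the RUNX transcription factors Runx1 and Runx2, their shared subunit Cbfb, the corepressor Cbfa2t3, and 2 members each of the CEBP (Cebpb, Cebpd) and ETS (Ets1, Ets2) families, whose proteins bind DNA beside RUNX proteins. They were chosen by symbol, and all 8 were found among the 12235 genes of the table. RNA came from cancer-associated fibroblasts of mouse breast tumours that grew from 100000 4T1 mammary carcinoma cells injected into the fat pad of BALB/c female mice aged 8 weeks, and tumours were taken at a size of 1 cm. The labels call the injected line 4T1-GFP in one field and 4T1-luc in another. All sorted cells lacked Ter119, CD45 and EpCAM and carried podoplanin (PDPN), and the sort on the surface protein Ly6C gave 3 libraries of Ly6C+ and 3 of Ly6C- cells. No label says whether the libraries of a group came from separate tumours or pools, so p-values measure the spread between these libraries, which may be technical.

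RUNX proteins bind DNA through their Runt domain, and CBFB, which does not touch DNA itself, raises their affinity. RUNX1 is best known as a regulator of blood stem cell formation and RUNX2 as the factor that bone cells need to form. C/EBP-beta and C/EBP-delta are basic leucine zipper proteins that act in inflammation and fat cell formation, and ETS1 and ETS2 are winged-helix factors that lie downstream of RAS and MAP kinase signals. RUNX1 is named in the title of the series, and the comparison of the 2 sorted groups shows how its RNA and that of its partners differ with surface Ly6C.

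The sequence around the outer start site of Runx1 and Runx2 is shown as a description. Both genes were lower in all Ly6C+ libraries than in any Ly6C- library, as were 16.1% of all tested genes, and Runx1 did not pass the test. RUNX2 is known to act on its own promoter, and the part of this in the values here was not tested. Sequences are from RefSeq (GRCm38.p6, the mm10 assembly). Windows from 250 bases before to 50 after a start were found for 6 of the 8 members, 8 windows in all, and Cebpd and Ets1 had no entry. Short patterns were searched on both strands: TGTGGT and TGCGGT for RUNX, TTGCNNAA for CEBP and CCGGAA for ETS. Capitals mark the matches, positions count from 1 at the RefSeq start, and each stretch has 30 bases on the minus strand.
Runx2, positions 16 to 45, chr17:44814583-44814612: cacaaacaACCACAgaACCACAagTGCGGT
Runx1, outer start, positions 21 to 50, chr16:92826025-92826054: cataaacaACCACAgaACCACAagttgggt
Runx2, positions -92 to -63, chr17:44814690-44814719: gtgaggtcacaaACCACAtgattctgtctc
Runx2, positions -59 to -30, chr17:44814657-44814686: agtaatagtgcTTGCAAAAaataggagttt
Runx1, inner start, positions -118 to -89, chr16:92697418-92697447: cccaggctgataCCGGAAaggcctgtgatt
The first pair of stretches was identical at 27 of 30 positions, 22 of them in 1 run, and each held the RUNX letters as ACCACA, the reverse complement of TGTGGT, in tandem. The tandem pattern ACCACANNACCACA, searched on both strands, was in 7 of 32851 windows (0.0213%), of which 2 were those of Runx1 and Runx2. This is the pattern seen in both stretches, so these 2 windows had to match, and the count is a description only. A single TGTGGT was in 16.8%, TGCGGT in 6.45%, TTGCNNAA in 10.8% and CCGGAA in 14.9% of all windows. The Runx2 window held 3 copies of TGTGGT, and the inner Runx1 window held none and 1 CCGGAA. The outer window of Cbfa2t3 held 1 TGCGGT and 1 CCGGAA, and its inner window, Cbfb, Cebpb and Ets2 held none of the patterns. The annotated genes start 75 (Runx1) and 170 (Runx2) bases further upstream in GENCODE, so the stretches of Runx2 and the outer one of Runx1 may be transcribed. Libraries of 3′ ends read the end of a transcript and do not tell the outer Runx1 start from the inner one, which lies 128745 bases away. Matches are letters only, and no binding was measured.

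Values below are normalised counts, the number of reads divided by 1 size factor per library. The libraries held 1176909 to 2818269 reads on these genes, fewer in each Ly6C- than in any Ly6C+ library, and 1 read was worth 0.610 to 1.31 units. The sort gene Ly6c1 stood at 2316 to 3849 in Ly6C+ and 65.6 to 88.6 in Ly6C- libraries. The fibroblast gene Col1a2 was abundant, at 20568 to 28394 in all 6. Groups are compared by log2 fold changes (Ly6C+ minus Ly6C-) from limma on log2(value + 1), which understates changes of low genes, with p-values adjusted by Benjamini-Hochberg over 9646 genes with a mean of at least 5. Of these genes 17.1% passed at an adjusted p under 0.05, 9.41% higher and 7.66% lower in Ly6C+ cells, and in 33.1% the values of both groups stood apart without overlap. The share was 17.8% in edgeR on recovered reads under either of its scalings, 16.1% in DESeq2 and 17.5% with a pseudocount of 5. Across the alternatives without a replicate block it ran from 11.6% (without Ly6C- replicate 2) to 19.98% (libraries scaled to their totals). When libraries were scaled to their own totals, the midpoint of all genes' log2 fold changes moved by -0.19, and 37.5% of the calls were higher against 55.1% here. Fibroblast markers were not even between the groups. Of 9, all tested, 4 were called higher and 1 lower in Ly6C+ cells, and 4, Col1a2 among them, did not pass. Their summed level was 67556 to 76329 in Ly6C+ and 46761 to 60957 in Ly6C- libraries.

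Of the 8 members, 7 reached the filter on low values and 2 passed the test, Runx2 lower and Cebpd higher in Ly6C+ cells. Runx1, Cbfb, Cebpb, Ets1 and Ets2 did not pass, and Cbfa2t3 was too low to test. Of all tested genes 17.1% were called, but Cebpd reached the filter only through its Ly6C+ values, so nothing is read from the members' share. At an unadjusted p under 0.05, limma gave 3 of the 7, Runx1 being the third. Their median log2 fold change was 0.11 against -0.00070 for all genes tested, and 4 were above and 3 below 0. Values stood apart without overlap in 3 of the 7, Runx1, Runx2 and Cebpd, against 33.1% of all tested genes. Those of the untested Cbfa2t3 stood apart only through the scaling. Its Ly6C+ replicate 3 and Ly6C- replicates 1 and 2 held 1 read each. In bulk RNA, fewer cells that express a gene and less RNA per cell cannot be told apart.

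**Figure D1:**
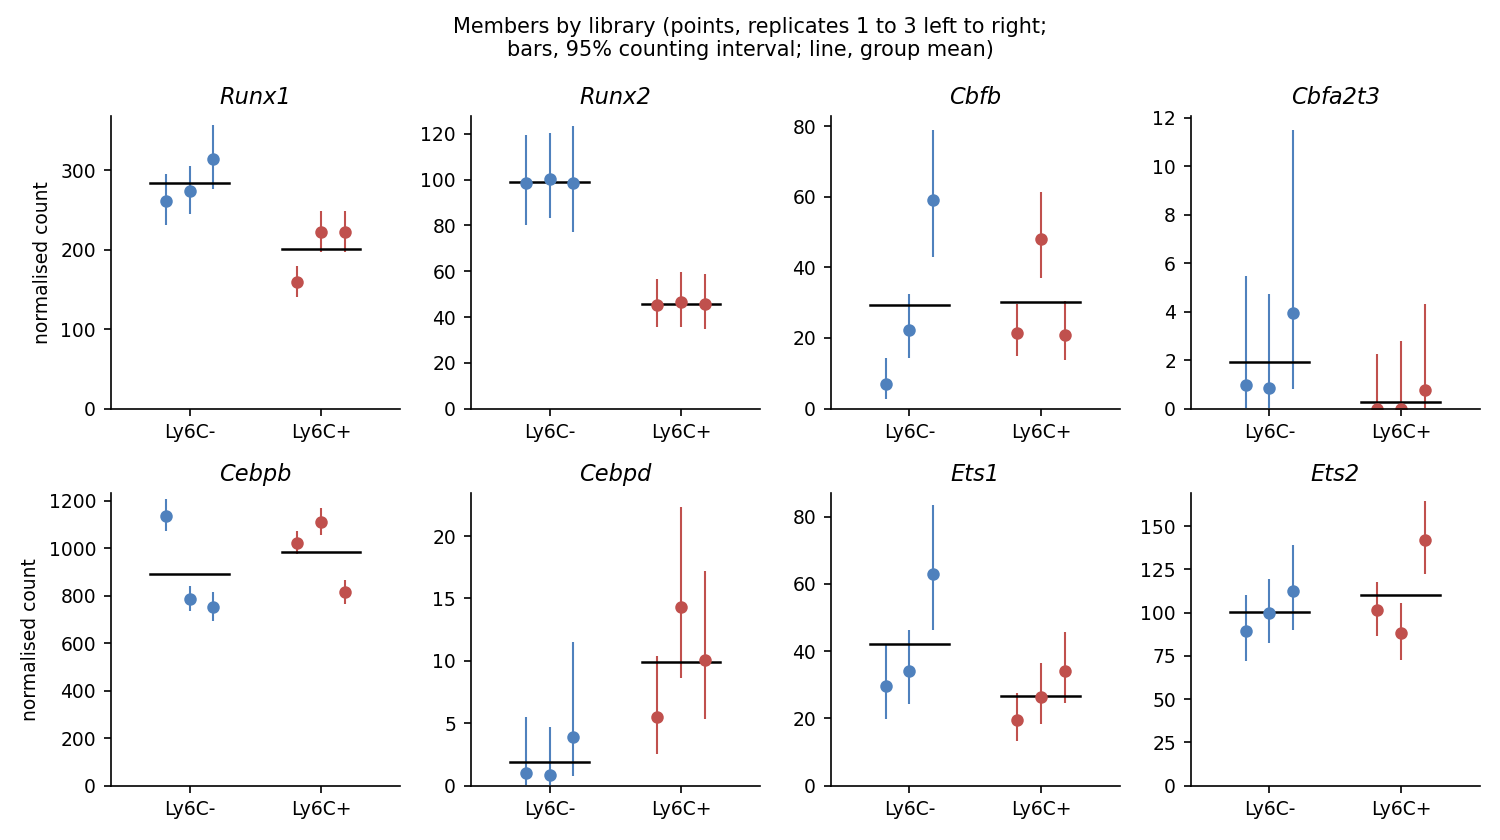
Normalised count (vertical axes, each from 0) of the 8 members in the 3 Ly6C- (blue) and 3 Ly6C+ (red) libraries, with replicates 1 to 3 from left to right, the exact 95% counting interval of each library as a bar and the group mean as a line. Runx2 stands at 98.3 to 100.4 against 45.1 to 46.6 with no overlap, while the Cbfb values of 1 group range from 6.89 to 59.0.

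Runx2 (ENSMUSG00000039153, chromosome 17, 44495987 to 44814797, minus strand, protein coding) was 2.16-fold lower in Ly6C+ cells. The Ly6C+ libraries held 45.1, 46.6 and 45.6 and the Ly6C- libraries 98.4, 100.4 and 98.3, on 59 to 74 and 75 to 118 reads. All Ly6C- libraries were above all Ly6C+ libraries, with 45.8 ± 0.752 against 99.0 ± 1.16 (mean ± SD, n = 3 each). The log2 fold change was -1.10 (SE 0.18, 95% interval -1.49 to -0.70; limma adjusted p = 0.00146). The spread within the groups, a coefficient of variation of 1.64% and 1.17%, was below the 12.5% and 10.3% that counting error alone gives at these depths, so the SD understates the error of a library. Of 1969 tested genes within 1.5-fold of its level, 99.9% had a larger residual SD. The fold from the pooled reads, 2.17 with a 95% counting interval of 1.80 to 2.61, rests on no replicate spread. Runx2 passed in each of the 20 alternative settings.

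Runx1 (ENSMUSG00000022952, chromosome 16, 92601466 to 92826149, minus strand, protein coding) was lower in each Ly6C+ than in any Ly6C- library but did not pass the test. Its values were 159, 222 and 222 across the Ly6C+ libraries and 262, 274 and 315 across the Ly6C- libraries. Ly6C+ replicate 1 was the lowest of the 6, and the nearest libraries of the 2 groups were 222 and 262. The means were 201 ± 36.1 and 283 ± 27.7 (SD, n = 3 each), a ratio of 1.41, and the log2 fold change was -0.51 (SE 0.18, 95% interval -0.91 to -0.10; limma adjusted p = 0.0901). Without Ly6C+ replicate 1 the log2 fold change was -0.35 (limma adjusted p = 0.277). With libraries scaled to their own totals it was -0.70 (limma adjusted p = 0.0205), where the median of all genes was -0.19. Runx1 stayed the more abundant RNA of the pair in every library, as the reads per 3′ end show, with 240 to 322 reads against 59 to 118 of Runx2.

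The plain ratio of Runx1 to Runx2 within a library does not depend on how libraries were scaled. It was 3.53, 4.76 and 4.86 across the Ly6C+ libraries and 2.66, 2.73 and 3.20 across the Ly6C- libraries. Every Ly6C+ library was above every Ly6C- library. The test used log2(value + 1), which depends slightly on the scaling, and there the ratio was 1.51-fold higher in Ly6C+ cells (difference 0.59). The two-sided exact permutation p was 0.1, the smallest that 3 against 3 libraries allow, and 0.25 adjusted over the 5 ratios computed.

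**Figure D2:**
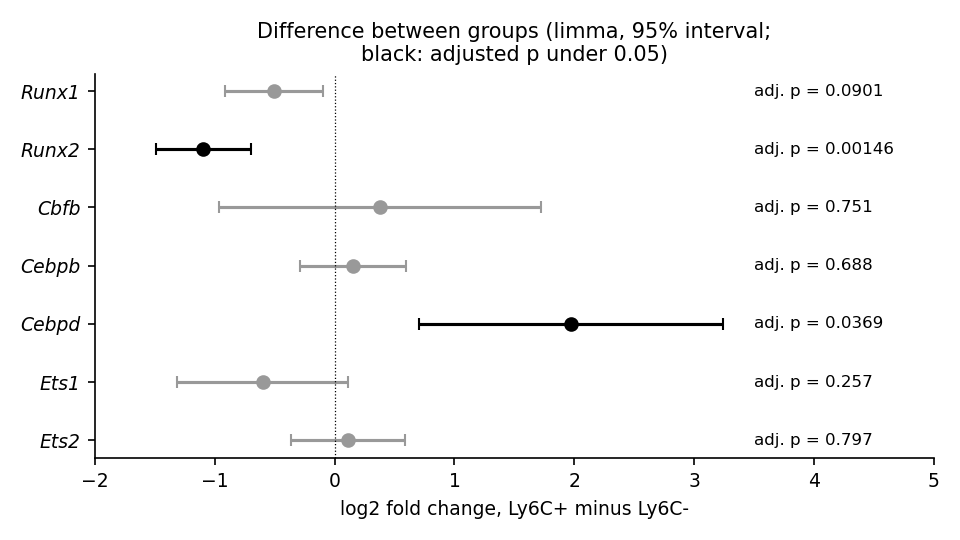
Log2 fold change (horizontal axis, Ly6C+ minus Ly6C-) of the 7 tested members with its 95% interval from limma and the adjusted p beside it, in black for adjusted p under 0.05 and in grey for the rest. Runx2 at -1.10 and Cebpd at 1.97 are in black, and the interval of Runx1 (-0.91 to -0.10) leaves out 0 although its adjusted p of 0.0901 does not pass.

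Cbfb (ENSMUSG00000031885, chromosome 8, 105170674 to 105217989, plus strand, protein coding), the partner that both RUNX proteins share, varied more within the groups than between them. Values were 21.3, 48.1 and 20.9 across the Ly6C+ libraries and 6.89, 22.1 and 59.0 across the Ly6C- libraries, on 35, 64 and 27 and on 7, 26 and 45 reads. The lowest and the highest of the 6 libraries were both Ly6C-. They differed 8.56-fold, and their 95% counting intervals, 2.77 to 14.2 and 43.0 to 78.9, did not meet. Only 0.958% of 2191 tested genes within 1.5-fold of its level had a larger residual SD. The group means were 30.1 ± 15.6 and 29.3 ± 26.8 (SD, n = 3 each), and the log2 fold change of 0.38 had a 95% interval of -0.97 to 1.72 (limma adjusted p = 0.751). Its sign turned without Ly6C+ replicate 2 (-0.0063) and without Ly6C- replicate 1 (-0.37), so no direction can be read.

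Against this uneven partner the RUNX genes gave ratios that overlapped between the groups. The ratio of Runx1 to Cbfb was 4.61 to 10.6 in Ly6C+ and 5.33 to 38.0 in Ly6C- libraries (exact permutation p = 0.4, two-sided; adjusted 0.4). That of Runx2 to Cbfb was 0.969 to 2.19 and 1.67 to 14.3 (exact permutation p = 0.3, two-sided; adjusted 0.375). In both, Ly6C- replicate 1, the library with 7 Cbfb reads, was the highest.

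Cbfa2t3 (chromosome 8, 122625141 to 122699109, minus strand, protein coding), which encodes a corepressor of the ETO family, was barely detected. It had 0, 0 and 1 reads in Ly6C+ and 1, 1 and 3 reads in Ly6C- libraries. Pooled per group and scaled for depth, the reads were 7.22-fold higher in Ly6C- cells (exact 95% counting interval 0.808 to 341, which covers no difference). The libraries with 0 reads allow up to 2.25 and 2.77 normalised counts at the upper bounds of their 95% intervals. Its family member Cbfa2t2 stood at 34.0 to 39.6 in all 6 libraries and missed the threshold, at -0.06 on the log2 scale (limma adjusted p = 0.898). Runx3 and Runx1t1 were not analysed here.

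Cebpd (ENSMUSG00000071637, chromosome 16, 15887286 to 15891031, plus strand, protein coding) was higher in Ly6C+ cells at a low level. It stood at 5.49, 14.3 and 10.04 across the Ly6C+ libraries and 0.984, 0.851 and 3.93 across the Ly6C- libraries. These are 9, 19 and 13 reads against 1, 1 and 3, and every Ly6C+ library was above every Ly6C- library. The group means were 9.94 ± 4.40 and 1.92 ± 1.74 (SD, n = 3 each), 5.17-fold apart, and the pooled reads put it at 5.68 (95% counting interval 2.25 to 18.4). The log2 fold change was 1.97 (SE 0.57; limma adjusted p = 0.0369). Cebpd reached the filter only through its Ly6C+ values. The call ended without Ly6C+ replicate 1 (limma adjusted p = 0.0515), Ly6C+ replicate 3 (0.119), Ly6C- replicate 1 (0.0596) or Ly6C- replicate 2 (0.114), and without Ly6C+ replicate 2 the gene fell below the filter.

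Cebpb (ENSMUSG00000056501, chromosome 2, 167688915 to 167690418, plus strand, protein coding) was the most abundant member, rank 276 of the 12235 genes by mean value. Its values were 1023, 1112 and 816 across the Ly6C+ libraries and 1139, 788 and 753 across the Ly6C- libraries. The highest of all was Ly6C- replicate 1, and the groups overlapped. The means were 984 ± 152 and 893 ± 214 (SD, n = 3 each), and the log2 fold change of 0.15 had a 95% interval of -0.29 to 0.59 (limma adjusted p = 0.688), from 0.819-fold to 1.51-fold. Its sign turned under quantile normalization (-0.0058) and with libraries scaled to their totals (-0.042). Tmem189 on the opposite strand overlaps the last 1000 bases of Cebpb in the annotation and stood at 34.6 to 64.7. How strands were counted is not given in the sources used here, so reads of the overlap cannot be assigned with certainty. The ratio of Cebpb to Cebpd was 77.9 to 186 in Ly6C+ and 191 to 1157 in Ly6C- libraries, with no overlap on the plain ratio, but the test on log2(value + 1) gave an exact permutation p of 0.2 (two-sided; adjusted 0.333). The Ly6C- ratios rest on 1, 1 and 3 Cebpd reads, so the narrow gap between 186 and 191 is not firm.

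Ets1 (ENSMUSG00000032035, chromosome 9, 32636221 to 32757820, plus strand, protein coding) did not pass. Ly6C+ libraries gave 19.5, 26.3 and 34.0 and Ly6C- libraries 29.5, 34.0 and 62.9. The groups overlapped, and Ly6C- replicate 3 stood above the other 5. The log2 fold change was -0.60 (95% interval -1.31 to 0.11; limma adjusted p = 0.257) with means of 26.6 ± 7.24 and 42.2 ± 18.1 (SD, n = 3 each). Leaving out Ly6C- replicate 3 gave -0.28 and leaving out Ly6C+ replicate 1 gave -0.40 (limma adjusted p = 0.590 and 0.566), with the same sign in all 20 alternatives.

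Ets2 (ENSMUSG00000022895, chromosome 16, 95702075 to 95721051, plus strand, protein coding) gave 101, 87.9 and 142 across the Ly6C+ libraries and 89.6, 99.5 and 113 across the Ly6C- libraries. Both the lowest and the highest value were Ly6C+. The log2 fold change of 0.11 had a 95% interval of -0.36 to 0.58 (limma adjusted p = 0.797), and its sign turned without Ly6C+ replicate 3 (-0.085) and with libraries scaled to their totals (-0.084). The ratio of Ets1 to Ets2 was 0.193, 0.299 and 0.239 across the Ly6C+ libraries and 0.330, 0.342 and 0.558 across the Ly6C- libraries. All Ly6C- ratios were above all Ly6C+ ratios (difference -0.71 on log2(value + 1); exact permutation p = 0.1, two-sided, the smallest possible; adjusted 0.25).

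**Figure D3:**
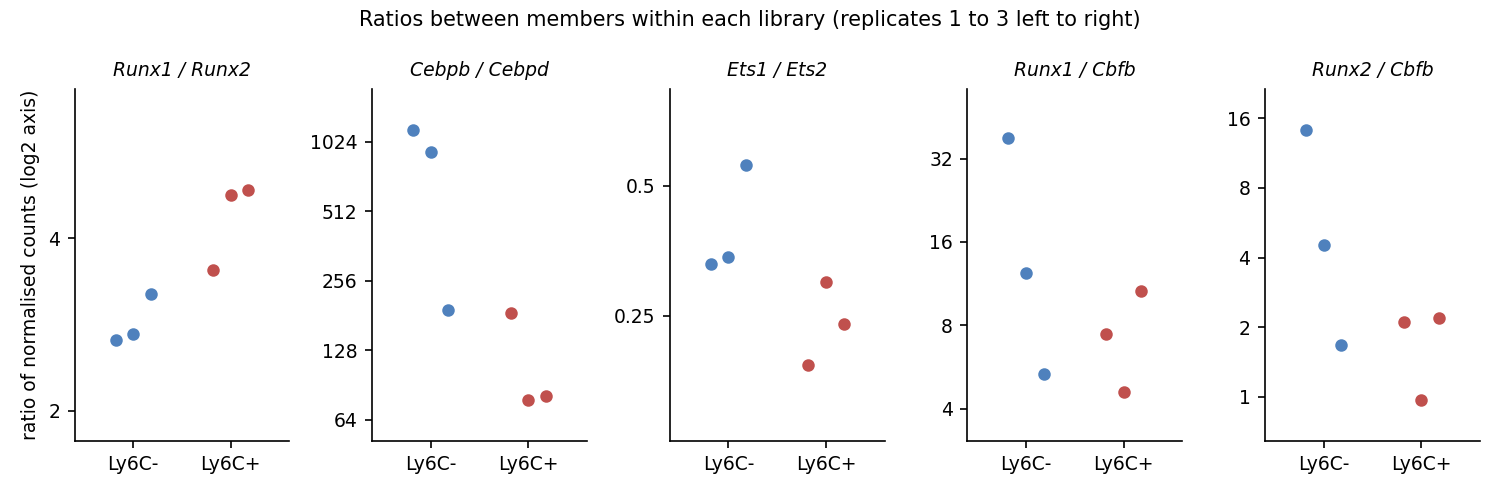
Ratio of normalised counts (vertical axes, log2 scale) of 5 gene pairs in each library, with the 3 Ly6C- libraries in blue and the 3 Ly6C+ libraries in red, replicates 1 to 3 from left to right. Runx1 to Runx2 separates the groups (3.53 to 4.86 against 2.66 to 3.20), as does Ets1 to Ets2 (0.193 to 0.299 against 0.330 to 0.558), and both ratios to Cbfb overlap.

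A 3′ end library gives reads from the end of a transcript whatever its length, so levels were not divided by length. By mean normalised count over the 6 libraries the order was Cebpb (938), Runx1 (242), Ets2 (106), Runx2 (72.4), Ets1 (34.4), Cbfb (29.7), Cebpd (5.93) and Cbfa2t3 (1.09). In Ly6C+ libraries Ets2 was above Runx2 throughout (87.9 to 142 against 45.1 to 46.6). In Ly6C- libraries their values overlapped (89.6 to 113 against 98.3 to 100.4). Cbfb and Ets1 overlapped in both groups, and Cbfb and Runx2 in the Ly6C+ group, where the highest Cbfb value was 48.1.

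The patterns nearest to those of the RUNX genes were sought among 6703 other tested genes with a mean of at least 20, by the root mean square difference of centred log2 values over the 6 libraries. Nearest to Runx1 were Chsy1, a chondroitin synthase gene (difference 0.042), Aaas, a nuclear pore gene (0.043), Rpap3, a chaperone partner gene (0.046), and Timm17a of the mitochondrial import channel (0.061). None of these 4 passed the test, as Runx1 did not, and 28 genes lay within 0.1 of Runx1. Nearest to Runx2 were Myh9, a non-muscle myosin heavy chain gene (0.065), Oaf (0.080), the integrin-linked kinase gene Ilk (0.084) and Plaur, the urokinase receptor gene (0.086). All 4 fell, with Myh9 at 870 ± 20.3 in Ly6C+ and 1814 ± 140 in Ly6C- cells (SD, n = 3 each), and 7 genes lay within 0.1 of Runx2. This likeness is a description over 6 libraries that fall in 2 groups.

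Of 5 further CEBP family genes 3 were tested, and 1 rose (33.3% called, against 17.1% of all tested genes). This was Cebpa, a factor of fat and myeloid cells, with 62.8, 52.6 and 58.0 across the Ly6C+ libraries and 32.5, 30.6 and 26.2 across the Ly6C- libraries. The groups did not overlap, with 57.8 ± 5.10 against 29.8 ± 3.21 (SD, n = 3 each; log2 fold change 0.94; limma adjusted p = 0.0107), and the call ended in 1 of 20 alternatives, without Ly6C+ replicate 1 (limma adjusted p = 0.0525). Ddit3, the stress-induced CEBP family gene, stood at 129 ± 33.1 and 130.4 ± 3.96 (SD, n = 3 each) and did not pass.

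The table held 14 further ETS family genes, and of the 10 that were tested 0 rose and 2 fell. The share called was 20%, against 17.1% of all tested genes. Etv4, of the PEA3 group that responds to growth factor signals, was 11.1-fold lower in Ly6C+ cells, at 25.6, 33.8 and 23.2 against 279, 353 and 287 (log2 fold change -3.44; limma adjusted p = 1.47e-06). Elk3, a partner of serum response factor, was 1.90-fold lower, at 68.3, 54.9 and 69.5 against 119, 121 and 127 (log2 fold change -0.93; limma adjusted p = 0.00494). For both the groups did not overlap. The nearest relative of Etv4 on the list, Etv5, stood at 14.5 ± 2.74 and 22.5 ± 9.31 (SD, n = 3 each) and did not pass. Spi1, the ETS factor of myeloid cells, stood at 3.76 to 9.76 in Ly6C+ and at 0 to 0.984 in Ly6C- libraries, below the filter.

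Of 25 tested genes whose proteins act with RUNX factors, 3 rose, 1 fell and 21 did not pass. The share called, 16.0%, was near the 17.1% of all tested genes. Tle2 and Tle5 encode members of the Groucho family, whose full-length proteins repress with RUNX. Tle2 gave 66.5, 60.1 and 47.1 across the Ly6C+ libraries and 25.6, 11.1 and 22.3 across the Ly6C- libraries (log2 fold change 1.58; limma adjusted p = 0.00516). Tle5, the short form, was 1.73-fold higher (1125 ± 249 against 652 ± 119; limma adjusted p = 0.0239), and its call ended in 8 of 20 alternatives. The kinase gene Pim1 rose 2.16-fold (375 ± 52.9 against 174 ± 34.4; limma adjusted p = 0.00204). The YAP and TAZ genes Yap1 and Wwtr1 and the SMAD genes Smad1, Smad3 and Smad5, whose proteins bind RUNX proteins, did not pass.

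**Figure D4:**
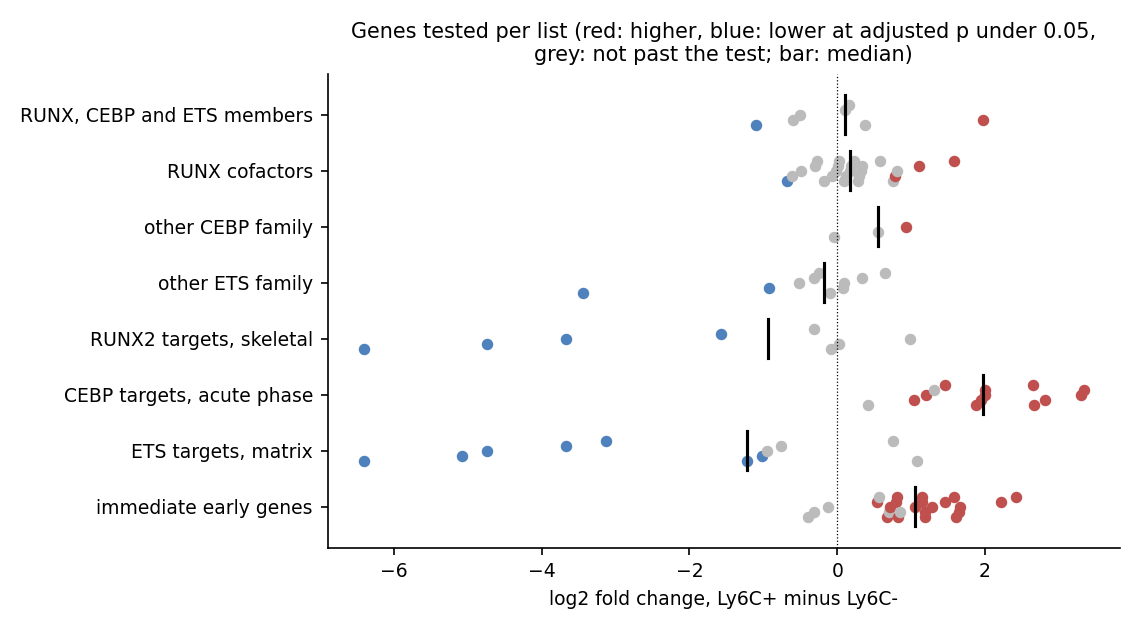
Log2 fold change (horizontal axis, Ly6C+ minus Ly6C-) of the tested genes of each list, with the median as a bar, red for higher and blue for lower at adjusted p under 0.05 and grey for the rest. The 7 members spread on both sides of 0 around a median of 0.11, while the CEBP target list has its median at 1.97 and the ETS target list at -1.21. The lists were chosen with earlier results of these data known, so their medians are a description only.

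Genes known as targets of these factors in other tissues were called in 4 of 8 (RUNX2), 7 of 11 (ETS) and 12 of 14 (CEBP) tested, against 17.1% of all genes, in directions that differed by list. The lists were drawn up with earlier results of these data known, and most of their large changes were among those results. High shares can thus follow from the choice of genes, and nothing is read from their distance to 17.1%. Of 8 tested RUNX2 targets of skeletal tissue, 4 fell and 0 rose, with a median of -0.94: Spp1 (osteopontin), Mmp13 (collagenase 3), Mmp9 (gelatinase B) and Vegfa. Spp1 stood at 549 ± 87.6 in Ly6C+ and 14758 ± 2809 in Ly6C- cells (SD, n = 3 each; log2 fold change -4.74; limma adjusted p = 1.41e-07). Alpl, alkaline phosphatase, stood at 18.9 to 40.6 against 10.2 to 19.7, the other way, and did not pass (limma adjusted p = 0.0955), and Ibsp had no read in any library. Col1a1 and Col1a2, collagen genes that bone cells share with fibroblasts, did not pass.

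Of 11 tested ETS targets of matrix and invasion, 7 fell and 0 rose, with a median of -1.21. Of these Spp1, Mmp9 and Mmp13 are also on the RUNX2 list, so the lists are not independent. Tnc, tenascin-C, was 8.63-fold lower in Ly6C+ cells (865 ± 265 against 7464 ± 1548; limma adjusted p = 7.45e-06). Plau, the urokinase gene, was 35.9 ± 7.68 against 21.1 ± 6.03 and did not pass (SD, n = 3 each; limma adjusted p = 0.107).

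Of 14 CEBP targets of the acute phase, all tested, 12 rose and 0 fell, with a median of 1.97. Serpina3n, a protease inhibitor gene, was 10.1-fold higher in Ly6C+ cells (5610 ± 872 against 553 ± 75.6; limma adjusted p = 8.68e-07). Steap4, a metalloreductase gene, was 9.86-fold higher and Lcn2, the gene of the iron-carrier binder lipocalin 2, 6.51-fold higher. The complement gene C3 was 6.75-fold higher. Of the CEBP genes, Cebpb overlapped between the groups and Cebpa rose. Cebpd rose on 41 against 5 reads and reached the filter only through its Ly6C+ values. The part of the CEBP genes in the values of this list was not tested.

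Cebpb, Cebpd and Ets2 belong to the genes that cells can induce within hours of stress, and a list of immediate early genes, a class that enzymatic digestion of tissue can switch on, was counted beside them. All 25 on the list were tested, and 19 rose, 0 fell and 6 missed the threshold (median 1.05). The share called was 76%, against 17.1% of all tested genes, on a list drawn up with earlier results of these data known. Klf4 (1888 ± 77.7 against 353 ± 38.8; limma adjusted p = 2.10e-06), Atf3, Zfp36 and Socs3 had the smallest p. Socs3 is also on the CEBP target list, so these lists are not independent. The summed level of the 25 immediate early genes was 61459 to 67894 in Ly6C+ and 29883 to 33667 in Ly6C- libraries. The part of this difference in the Cebpd result was not tested.

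Markers of other cells that use these factors were present and were uneven between the groups. Ptprc (CD45) stood at or below 4.88 and Epcam at or below 2.95 in every library. Of 12 macrophage markers 10 were in the table, with a summed level of 137 to 392 in Ly6C+ and 55.1 to 167 in Ly6C- libraries, and 6 of 8 granulocyte markers summed to 6.18 to 701 and 2.62 to 5.91. The granulocyte sum came from Ly6C+ replicate 1 (S100a9 at 478 against 4.51 and 2.32 in the other two), the library with the lowest Runx1 and, among Ly6C+ libraries, the lowest Cebpd, and the values without it are given with those genes. Lyz2, the lysozyme gene of myeloid cells, stood at 27.0 to 264 in Ly6C+ and 1.70 to 25.6 in Ly6C- libraries (limma adjusted p = 0.0124), a call that ended in 5 of 20 alternatives. It made up 264 of the macrophage sum of 392 in Ly6C+ replicate 1. Of the 6 macrophage markers tested, the 5 besides Lyz2 did not pass. Of 9 lymphocyte markers the table held Cd3e, a T cell receptor subunit gene, which was 7.65-fold higher in Ly6C+ cells, at 88.7 to 165 against 10.5 to 19.7 (limma adjusted p = 6.45e-05). Of 5 megakaryocyte and platelet markers it held 2. Itga2b, the platelet integrin gene, was 4.74-fold higher in Ly6C+ cells, at 36.8 to 90.9 against 10.5 to 17.0 (limma adjusted p = 0.00128), and Gp1bb overlapped between the groups. Cd3e and Itga2b passed in all 20 alternatives. The part of blood cell markers in the Runx1, Runx2 and Cebpd values was not tested. Endothelial markers, 6 of 11, summed to 23.3 to 42.7 in Ly6C+ and 24.9 to 163 in Ly6C- libraries. Of the 4 tested, 3 were lower and 1 was higher in Ly6C+ cells. Kdr was lower, at 4.51 to 8.54 against 10.5 to 94.4 (limma adjusted p = 0.0225), a call that ended in 8 of 20 alternatives. Tek was higher, at 13.5 to 25.6 against 0 to 2.62 (limma adjusted p = 0.00173). Epithelial markers, 9 of 9, summed to 11.0 to 54.9 and 66.9 to 336, and pericyte and smooth muscle markers, 8 of 8, to 190 to 246 and 604 to 1109. Of the last, Cspg4 (NG2) was at 25.0 to 28.6 against 324 to 400. None of the markers in these lists was at 0 in all libraries. Among 4 skeletal markers in the table Ibsp was at 0 throughout, Col2a1 was at or below 2.44, and the summed level was 38.4 to 51.9 and 17.0 to 35.4. Pericyte and smooth muscle markers did not all move in 1 direction. Of 7 tested, 5 were lower in Ly6C+ cells, as Runx2 was. Kcnj8 was higher, at 118 ± 17.0 against 30.1 ± 10.2 (SD, n = 3 each; limma adjusted p = 0.000367). Abcc9 stood at 30.1 ± 18.6 against 11.6 ± 4.93 and did not pass. The part of these markers in the Runx2 result was not tested.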

How the data were processed

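The deposited table holds signal values that are counts to which the authors applied 1 scaling factor for each library. Alignment with STAR 2.4.2a to mm10 and counting with HTSeq, after bcl2fastq, are listed in the submitters' processing notes. The annotation, the strand setting and how size factors were obtained are not given in the sources used here. All values (100%) were whole multiples of 1 step per library within a tolerance of 0.001, so whole reads were recovered. All 6 value columns were matched to samples by name.

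Groups were compared by limma 3.58.1, run in R 4.3.3, on log2(value + 1) with a mean-variance trend over the 9646 genes with a mean of at least 5, which held 99.6% of reads. No gene set test was run. Within-library ratios of 5 gene pairs were tested by exact permutation on log2(value + 1). The 20 alternatives covered the pseudocount, the filter, scaling, the prior, a replicate block, each library left out, and edgeR 4.0.16 and DESeq2 1.42.0 on recovered reads. The fits were tested on simulated data.

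Gene coordinates and overlaps came from GENCODE M21, promoter sequences from RefSeq. The members and lists were chosen with earlier results of these data known. Of 223 list entries, 169 matched a symbol of the table. Genes were named by rule: the members, the sort markers, per list up to 4 with the smallest p (all of 5 or fewer), the 3 most abundant per marker list, and the 4 nearest patterns to Runx1 and Runx2. Ddit3, Etv5, Spi1, Cbfa2t2, Plau, Ibsp, Tmem189 and the YAP, TAZ and SMAD genes were named after their values were seen. The result of 1 gene that the rule names is not reported here. Counting intervals are exact (95%), cover counting error only, and no molecular identifiers are named in the labels. Exact tests and counting intervals were computed with scipy 1.17.1, and plots were drawn with matplotlib 3.10.9.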

Additional observations from a re-analysis of the deposited data

How the results depend on the processing

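Runx2 kept its direction and its call in all 20 alternatives (log2 fold change -1.29 to -1.04). Scaling each library to its total gave 1204 genes lower in Ly6C+ cells against 739, and leaving out 1 library gave 461 to 735. The members called lower were 2 in place of 1, Runx1 being added, with scaling to library totals (Runx1 -0.70), and 2 with the replicate block in limma (Runx1 -0.51; limma adjusted p = 0.0337) and in edgeR (-0.51; edgeR adjusted p = 0.0344). The labels do not say that equal replicate numbers share a tumour, and the deviations of same-numbered libraries from their group means correlated at 0.129, 0.0518 and 0.167, not all over 0.1, so the numbers were not taken as pairs. Each library correlated best with its own number, a hint from the data only, and the block raised the genes called from 1647 to 2088 (limma) and 2113 (edgeR). The members called higher were 0 with no filter (Cebpd 1.97; limma adjusted p = 0.0560), 0 with a mean of at least 20, which leaves Cebpd out, and 0 to 1 with 1 library left out (Cebpd 1.72 to 2.43). Signs turned only for members that did not pass: Cbfb (-0.37 to 1.09 with 1 library left out), Ets2 (-0.085 to 0.26, and -0.084 scaled to totals) and Cebpb (-0.0058 with quantile normalization, -0.042 scaled to totals). Among 54 other named genes 990 of 1067 values kept direction and call, 39 lost a call and 26 gained one. The 12 that turned sign were of genes that did not pass: Col1a2 (-0.24 with quantile normalization, -0.18 scaled to totals, -0.068 to 0.16 with 1 library left out), Gp1bb (-0.011, -0.18, and -0.16 to 0.20), Csf1r (-0.0085 scaled to totals) and Sox9 (-0.18 to 0.69 with 1 library left out). The 5 ratios kept their sign in all 8 alternatives each. The depth limits Cbfa2t3 (6 reads) and Cebpd (46 reads).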
